A study of Mus musculus with 6 samples.

Results

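The genes described here are p53 itself (Trp53 in the mouse) and 35 genes known as its direct targets, 36 of the 32285 rows of a gene count table from mouse Tregs with and without Zfp335. They were taken by symbol as known targets, with earlier results of these data in view, and cover feedback on p53, arrest of the cell cycle, apoptosis, death receptors, DNA repair, and metabolism and stress. All 36 were found in the table, and 35 were expressed well enough to be tested. Zfp335 is a zinc finger transcription factor, and the study asked what its loss does to Tregs, the Foxp3+ CD4+ T cells that restrain immune responses. Bulk RNA-Seq was performed on CD4+CD25+ Tregs sorted from the spleens of C57BL/6 mice, with 3 wild-type (WT) libraries and 3 Zfp335-deficient (KO) libraries. KO mice were ERCre Zfp335 fl/fl animals, in which a Cre recombinase fused to an estrogen receptor deletes the floxed gene once tamoxifen is given. The promoter that drives this Cre is not given in the sources used here, and it is not the Treg-specific Foxp3 Cre, so loss of Zfp335 in Tregs and in other cells cannot be told apart. Per the study's methods, mice of 6 weeks of age received 3 injections of tamoxifen at 10 mg/mL and were killed on day 7, and the WT mice were ERCre animals given the same tamoxifen. The sample labels call the WT mice wild-type littermates and mention neither tamoxifen nor Cre in them. Neither source says whether a library came from 1 mouse or from several, so p-values measure the spread between libraries, which may be partly technical.

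p53 is a transcription factor that is kept scarce by its own target Mdm2 and accumulates when DNA is damaged or a cell is stressed in other ways. It binds DNA as a tetramer, at sites made of paired copies of a short palindromic half-site, and raises genes that halt the cell cycle, repair DNA, adjust metabolism or kill the cell. Other genes, above all those of mitosis, are lowered through its target p21 and a repressor complex called DREAM. In lymphocytes p53 is known for removing cells with damaged or misrepaired DNA during development and expansion.

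Promoter windows from 250 bases before to 50 bases after the transcription start were taken from RefSeq (GRCm38.p6) for the 28 members that it holds. Ddb2, Perp, Pmaip1, Rrm2b, Tnfrsf10b, Trp53inp1, Xpc and Zmat3 have no window here. The windows were searched for exact matches to the p53 half-site motif RRRCWWGYYY. Here R is A or G, W is A or T, and Y is C or T. The motif reads the same on both strands, so that each match counts for both. Stretches that differ from it at any base were not counted. A half-site was present in 13 of the 28 members (46.4%) and in 2582 of the 27025 genes of the table (9.55%). A pair of half-sites with at most 13 bases between them was present in 1 member, Cdkn1a (3.57%), and in 20 genes of the table (0.074%). A match describes the letters of a window and is not evidence of binding, and sites outside a window were not searched. The stretches below show the pair in Cdkn1a and 1 half-site each in p53, in 4 members that were higher in KO (Bax, Ccng1, Mdm2 and Rps27l) and in 2 that were not called (Ppm1d and Ckap2). The same window of Rps27l holds another half-site, which starts at base -107 and is not shown, and the other window of this gene holds 0. All are given 5′ to 3′ on the strand of the gene, with half-sites in capitals.
Cdkn1a, chr17:29090891-29090952, plus strand: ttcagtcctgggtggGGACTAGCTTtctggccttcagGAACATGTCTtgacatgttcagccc
Bax, chr7:45467070-45467119, minus strand: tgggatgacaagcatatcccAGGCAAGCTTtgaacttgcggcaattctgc
Ccng1, chr11:40755442-40755491, minus strand: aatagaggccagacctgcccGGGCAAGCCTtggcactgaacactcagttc
Mdm2, chr10:117710915-117710964, minus strand: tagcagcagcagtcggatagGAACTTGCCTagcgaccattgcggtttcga
Trp53, chr11:69580264-69580313, plus strand: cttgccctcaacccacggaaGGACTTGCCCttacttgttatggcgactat
Rps27l, chr9:66946183-66946232, plus strand: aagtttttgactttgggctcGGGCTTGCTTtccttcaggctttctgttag
Ppm1d, chr11:85311102-85311151, plus strand: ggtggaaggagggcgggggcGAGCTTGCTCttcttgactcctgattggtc
Ckap2, chr8:22185993-22186042, minus strand: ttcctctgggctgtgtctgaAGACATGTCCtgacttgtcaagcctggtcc
The half-sites of Cdkn1a start at bases -73 and -51 from the upstream of its listed starts of transcription and have 12 bases between them. The window of its other start, chr17:29093519-29093818, held 0 half-sites. The bases tgacatgttc, directly after the second half-site of Cdkn1a, miss the motif at 1 base and so were not counted. The half-site of Mdm2 starts at base -186, that of Ccng1 at -185, that of Bax at -201 and that of Trp53 at -75. Phlda3 and Psrc1, the members with the largest changes in KO Tregs, had no exact match in their windows, and near matches were not searched.

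Library totals lay between 133283969 and 209041812 counts. Expression is given as CPM, in which each count is divided by its library's TMM-scaled total, which compares a gene between libraries and not 1 gene with another. Zfp335 averaged 120.1 ± 4.67 CPM in WT against 14.8 ± 0.451 CPM in KO (SD, n = 3 in both), a log2 fold change of -3.02 in the direction of the labels, although 19.2% of its 50-base stretches also occur in other genes. The Treg markers Foxp3 (1136 CPM in WT and 1052 CPM in KO) and Il2ra, which encodes CD25 (479.6 CPM in WT and 433 CPM in KO), were high in all libraries, and both were lower in KO by small amounts (log2 fold changes of -0.11 and -0.15). Of the 7 markers in that list 2 were higher, Ctla4 by 0.65 and Tnfrsf18 by 0.12 on the log2 scale. Genes of other cells moved with the groups. KO libraries had less RNA of 18 of 20 tested markers of the B, myeloid and red cell lineages, and 0 of the 20 rose (edgeR; 1 had an unadjusted p under 0.05 in that direction). Of all genes tested, 12.1% were lower and 12.0% were higher. The summed level fell from between 46.8 and 51.4 CPM to between 21.5 and 23.6 CPM for 6 B cell markers. It went from between 44.6 and 52.3 CPM to between 20.9 and 22.7 CPM for 8 myeloid markers, and from between 36.6 and 43.5 CPM to between 1.81 and 2.31 CPM for 6 red cell markers. Of 5 markers of CD8 T and NK cells 0 were called by edgeR, and 0 had an unadjusted p under 0.05. In a list of 5 genes, 0 called cannot be told apart from the shares of all genes. Xist, expressed from the inactive X chromosome, averaged 0.272 ± 0.132 CPM in WT against 134.6 ± 10.4 CPM in KO (SD, n = 3 in both), while the Y-linked Ddx3y, Uty and Kdm5d were counted in all libraries and were lower in KO. The Y-linked Eif2s3y was not called, with a log2 fold change of 0.011 (edgeR adjusted p = 0.9). Each KO library thus held both Xist and Y-linked RNA, the sex of the mice is not given in the sources used here, and whether a library pooled mice of both sexes was not tested. The part of these differences in the results for p53 targets was not tested. In bulk RNA, fewer cells of a type and less RNA per cell cannot be told apart.

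The p53 targets were mostly higher in KO Tregs. Of the 35 tested members, 22 (62.9%) were higher in KO at an adjusted p under 0.05 and 2 were lower, Rrm2b and Ddit4 (edgeR's quasi-likelihood test, Benjamini-Hochberg adjustment over 17307 genes). Among all genes tested, 12.0% were higher and 12.1% were lower. Because the list was made with earlier results of these data known, the difference between these shares is a description of the list. The median log2 fold change of the members was 0.21, against -0.0042 for all genes tested. At least 1.5-fold higher were 9 members (Phlda3, Psrc1, Cdkn1a, Perp, Pmaip1, Sesn2, Plk2, Bbc3 and Tnfrsf10b), against 2.06% of all genes. At least 1.5-fold lower were 0 members, against 3.52% of all genes, and 3 members had an unadjusted p under 0.05 in that direction (edgeR). Every KO library lay above every WT library for 22 members (19.3% of all genes tested) and below for 4 (19.1%). With 3 against 3 libraries such a separation gives a two-sided exact permutation p of 0.1, the smallest possible. The plot of fold changes by functional group shows most of the increases among the arrest and apoptosis genes. Of these, 6 of 7 and 9 of 10 were higher. Of the 5 DNA repair genes 0 were, also at an unadjusted p under 0.05 and by DESeq2. In a list of 5 genes, 0 cannot be told apart from the 12.0% of all genes.

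**Figure D1:**
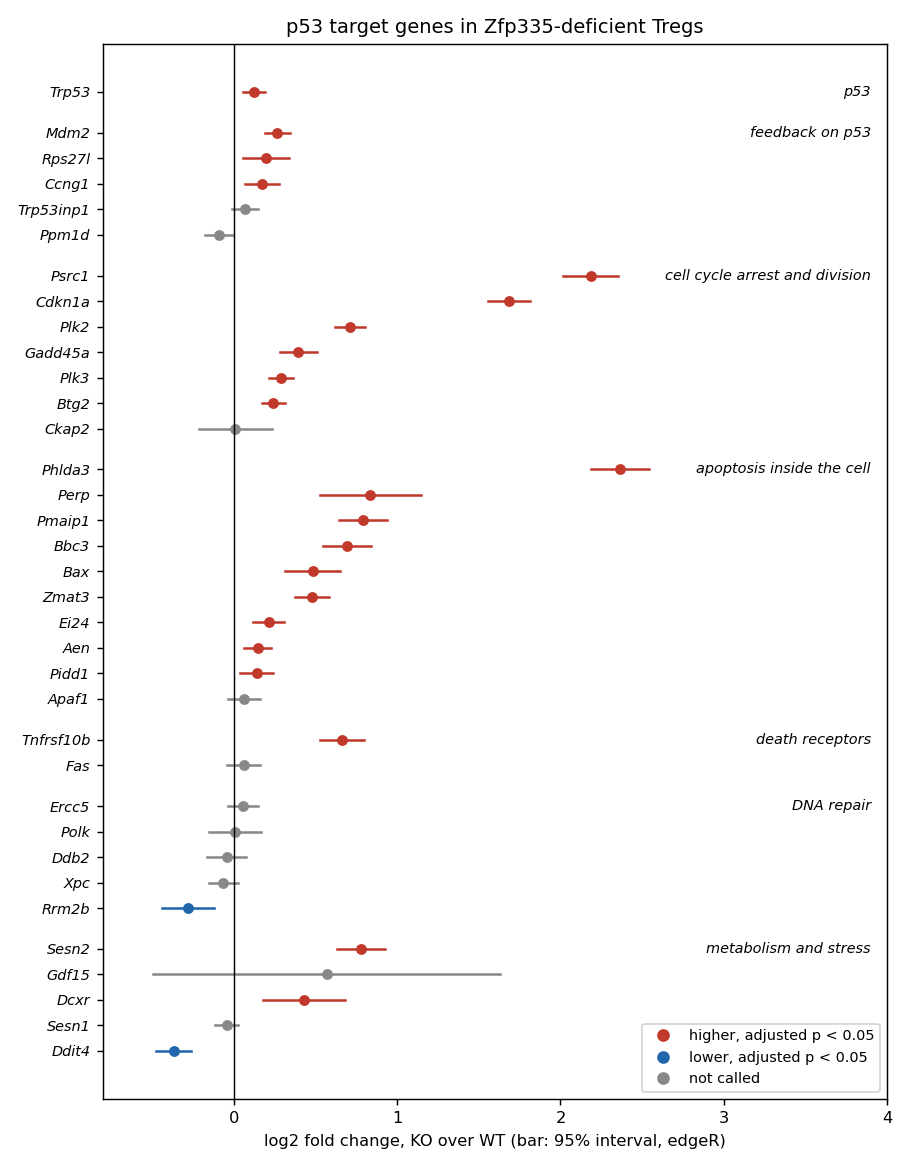
Log2 fold change of KO over WT (horizontal axis) for the 35 tested members, ordered within functional groups. Points are edgeR estimates and bars their 95% intervals, red where the gene was higher and blue where it was lower at an adjusted p under 0.05. Phlda3, Psrc1 and Cdkn1a stand to the right of all others, from 1.69 to 2.36, and the DNA repair genes lie at or below 0.056.

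RNA of p53 itself was slightly higher in KO. Trp53 was 161, 163 and 161 CPM in the WT libraries and 177, 175 and 176 CPM in the KO libraries. The groups did not overlap, and the libraries within each group lay close together. Its log2 fold change was 0.12 (SE 0.031, edgeR adjusted p = 0.0105), and without KO replicate 1 the adjusted p was 0.0542. The gene lies on chromosome 11 from 69580359 to 69591873, and 3.95% of its 50-base stretches occur in other genes, a Trp53 pseudogene among them.

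Of the 5 genes that feed back on p53, 3 were higher in KO by small amounts, against 12.0% of all genes tested, and 2 were not called. The calls of Ccng1 and Rps27l, among these 3, depended on the libraries or the method used. Mdm2, the ubiquitin ligase that marks p53 for destruction, was 103, 99.8 and 97.1 CPM in WT and 120.1, 120.4 and 121 CPM in KO. All KO libraries were above all WT libraries, and the log2 fold change was 0.27 (SE 0.035, edgeR adjusted p = 9.75e-05). Ccng1, cyclin G1, which recruits a phosphatase to Mdm2, was 92.1, 99.1 and 108 CPM in WT and 113, 112 and 112 CPM in KO. Here the WT libraries spread widely and the KO libraries did not. The log2 fold change was 0.17 (adjusted p = 0.0187), and the call was lost without WT replicate 2 (adjusted p = 0.079) or when any KO library was left out (adjusted p from 0.0631 to 0.0698). Rps27l, a ribosomal protein-like factor that binds Mdm2, rose from 14.7 ± 0.373 to 16.8 ± 1.36 CPM (SD, n = 3), a log2 fold change of 0.20 (adjusted p = 0.0433). That call was lost under 9 alternatives, among them DESeq2 (adjusted p = 0.0543), and 11.2% of the gene's 50-base stretches occur in other genes. Ppm1d, the phosphatase Wip1 that switches off p53 and the kinases upstream of it, was 36.3, 36.2 and 36.6 CPM in WT and 34.1, 34.1 and 34.4 CPM in KO. Its KO libraries were all lower, but the log2 fold change of -0.090 was not called (95% interval -0.18 to -0.0030, adjusted p = 0.13). Trp53inp1, which promotes the killing activity of p53, had a log2 fold change of 0.067 with overlapping groups (adjusted p = 0.219).

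Of the 7 genes of cell cycle arrest and division, 6 were higher in KO, against 12.0% of all genes tested. Among them were Psrc1 and Cdkn1a, with the second and the third largest changes of all members. Cdkn1a encodes p21, the inhibitor of cyclin-dependent kinases through which p53 stops the cell cycle. Its level was 8.39, 7.84 and 7.56 CPM in WT and 25.0, 26.0 and 25.8 CPM in KO. The lowest KO library was far above the highest WT library, and the log2 fold change was 1.69 (SE 0.059, 95% interval 1.56 to 1.81, edgeR adjusted p = 5.24e-10), or 3.22-fold. Cdkn1a, on chromosome 17 from 29090976 to 29100727, overlaps AC167363.2 on the other strand, and 8.49% of its 50-base stretches occur in other genes. Whether reads were counted by strand is not stated in the sources used here.

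Psrc1, which encodes a microtubule-binding protein of the mitotic spindle, was 3.32, 3.36 and 3.69 CPM in WT and 15.2, 15.2 and 16.4 CPM in KO. Its groups were the second most widely separated of the members by fold, with a log2 fold change of 2.18 (SE 0.077, adjusted p = 5.53e-10), or 4.54-fold, and it ranked at place 69 among the 17307 genes ordered from the largest increase. Psrc1 lies on chromosome 3 from 108383839 to 108388231. Plk2, a polo-like kinase induced by stress, was 50.8, 47.9 and 45.7 CPM in WT and 77.6, 79.6 and 79.6 CPM in KO. The gap between its groups was several times the spread within either, with a log2 fold change of 0.71 (SE 0.043, adjusted p = 7.73e-08). Gadd45a, a stress sensor that binds the mitotic kinase Cdk1, was 38.5, 36.3 and 38.2 CPM in WT and 53.5, 48.8 and 46.5 CPM in KO, a log2 fold change of 0.40 (adjusted p = 0.000125). It overlaps E230016M11Rik on the other strand, with 15.6% of its 50-base stretches in other genes. The related kinase gene Plk3 and the antiproliferative gene Btg2 were abundant in both groups and rose by less, with log2 fold changes of 0.29 and 0.24 and no overlap between groups. Ckap2, another spindle protein, averaged 7.45 ± 0.996 CPM in WT against 7.41 ± 0.776 CPM in KO (SD, n = 3), and its log2 fold change of 0.0092 had a 95% interval of -0.22 to 0.23.

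**Figure D2:**
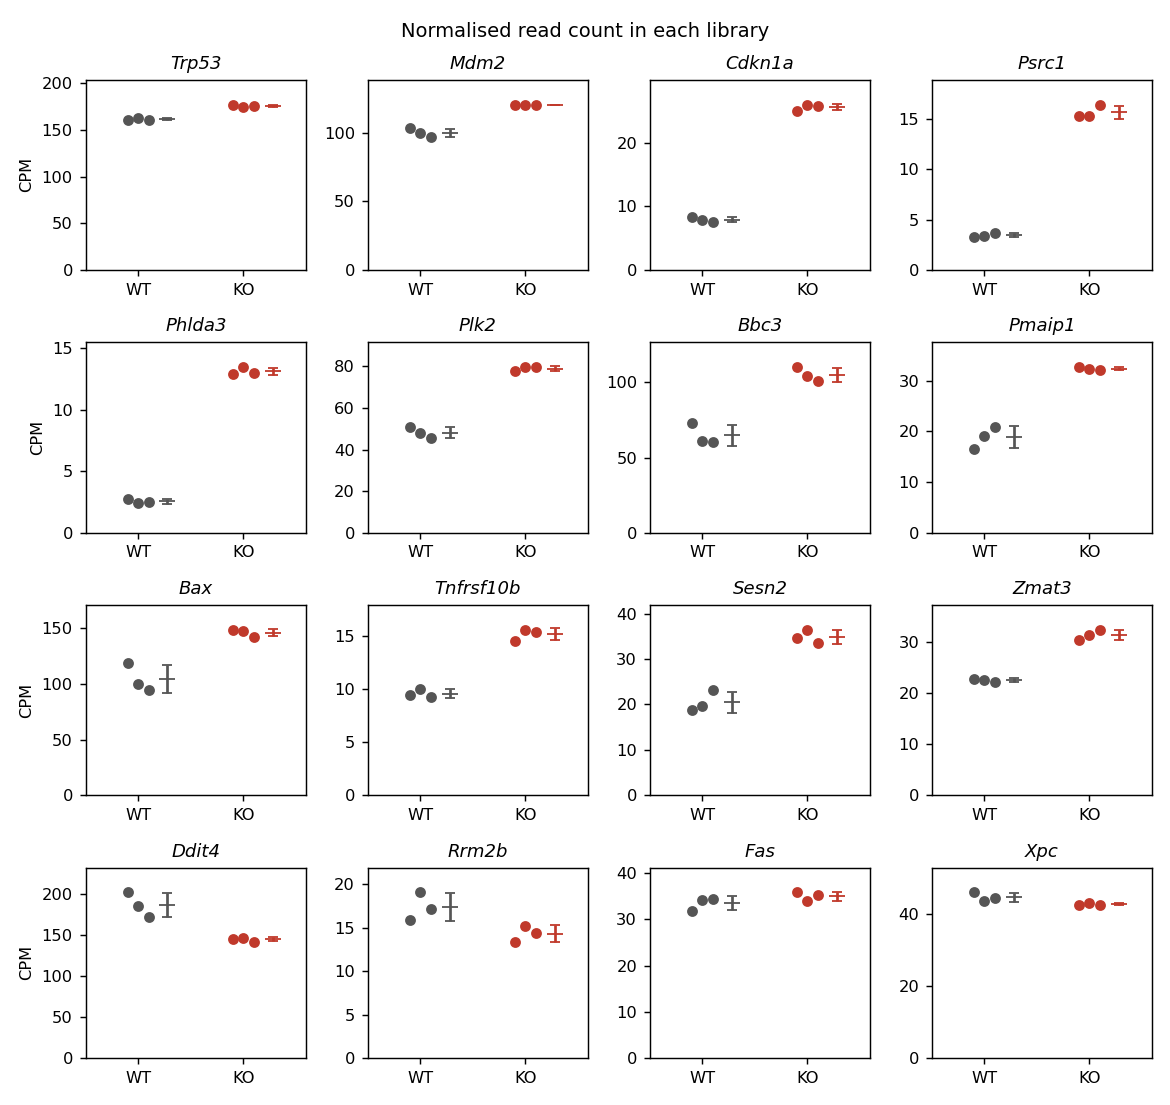
CPM (vertical axes, each starting at 0) of 16 members in the WT libraries (grey) and the KO libraries (red), with the mean and SD of 3 libraries beside the points. The 3 KO libraries stand apart from the 3 WT libraries for all genes shown but Fas, above them for most and below them for Ddit4, Rrm2b and Xpc, the last of which was not called.

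Of the 10 genes that act in apoptosis inside the cell, 9 were higher in KO and 0 were lower, the latter also at an unadjusted p under 0.05 and by DESeq2. Of all genes tested, 12.0% were higher and 12.1% were lower. In a list of 10 genes, 0 lower cannot be told apart from the latter share. Phlda3, whose protein competes with the survival kinase Akt for membrane lipids, showed the largest change of all members. It was 2.75, 2.41 and 2.47 CPM in WT and 12.9, 13.5 and 13 CPM in KO. The groups were wide apart with a log2 fold change of 2.36 (SE 0.083, 95% interval 2.18 to 2.54, edgeR adjusted p = 5.24e-10), or 5.14-fold, and the gene ranked at place 56 of 17307 by increase. Phlda3 lies on chromosome 1 from 135766119 to 135769136, and none of its 50-base stretches occur in other genes.

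The BH3-only genes Bbc3 and Pmaip1, which encode the death activators Puma and Noxa, rose by similar amounts. Bbc3 was 73.0, 61.2 and 60.4 CPM in WT and 110.1, 104 and 101 CPM in KO, with a log2 fold change of 0.69 (SE 0.066, adjusted p = 2.39e-05). Pmaip1 was 16.5, 19.1 and 20.9 CPM in WT and 32.6, 32.3 and 32.1 CPM in KO, with a log2 fold change of 0.79 (SE 0.068, adjusted p = 2.23e-06). For both genes the KO libraries were all above the WT libraries, which were more scattered than the KO libraries. Bax, which opens the outer membrane of mitochondria, was 119, 99.9 and 94.5 CPM in WT and 149, 147 and 142 CPM in KO. WT replicate 1 was the highest of its group and still below every KO library, and the log2 fold change was 0.48 (SE 0.074, adjusted p = 0.00166). Bax overlaps Gm45808 on the same strand, and 8.51% of its 50-base stretches occur in other genes.

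Perp, a membrane protein of cell contacts that takes part in p53-dependent death, was weakly expressed, at 1.35, 1.69 and 1.26 CPM in WT and 2.45, 2.72 and 2.60 CPM in KO. Its log2 fold change was 0.84 with a wider error than that of the more abundant genes (SE 0.14, adjusted p = 0.000861). Zmat3, an RNA-binding zinc finger protein, was 22.8, 22.5 and 22.1 CPM in WT and 30.2, 31.3 and 32.3 CPM in KO, a log2 fold change of 0.48 (SE 0.047, adjusted p = 8.12e-06). Neither gene had overlapping groups. Ei24, a membrane protein of the endoplasmic reticulum, Aen, a nuclease that digests DNA, and Pidd1, the scaffold of a caspase-activating complex, rose by 0.21, 0.15 and 0.14 on the log2 scale. Pidd1 had an adjusted p of 0.0476 and lost its call under 12 of 19 alternatives, and Aen lost its call without WT replicate 2 (adjusted p = 0.0629) and without KO replicate 1 (0.0582). Apaf1, the core of the apoptosome, averaged 45.3 ± 2.22 CPM in WT against 47.2 ± 1.41 CPM in KO (SD, n = 3), a log2 fold change of 0.062 that was not called (95% interval -0.037 to 0.16).

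The death receptors, which trigger apoptosis from the cell surface, gave 1 increase among 2 tested genes. A count from 2 genes cannot be told apart from the 12.0% of all genes tested that were higher. Tnfrsf10b, the receptor for the death ligand TRAIL, was 9.43, 10 and 9.27 CPM in WT and 14.6, 15.6 and 15.4 CPM in KO. All KO libraries were higher, with a log2 fold change of 0.66 (SE 0.063, adjusted p = 5.36e-06), and 6.21% of the gene's 50-base stretches occur in other genes. Fas, the receptor used to remove activated T cells, was 31.9, 34.3 and 34.5 CPM in WT and 35.9, 33.9 and 35.3 CPM in KO. Its groups overlapped, and the log2 fold change of 0.062 had a 95% interval of -0.040 to 0.16 (adjusted p = 0.39). Eda2r, a receptor for an ectodysplasin, was the member not tested in the main fit. It was at 0 in WT replicates 1 and 2 and at most 0.156 CPM in any library, in KO replicate 3. Its counts came to 4 in the WT libraries and 46 in the KO libraries, and the groups overlapped. By DESeq2 and without a filter on low counts, all 36 members were tested.

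Of the 5 DNA repair members, 0 were higher in KO, 1 was lower and 4 were not called. Among all genes tested, 12.0% were higher and 12.1% were lower, and counts from 5 genes cannot be told apart from these shares. The median log2 fold change was -0.044. Rrm2b, the p53-inducible subunit of ribonucleotide reductase, was 15.9, 19.1 and 17.2 CPM in WT and 13.3, 15.2 and 14.4 CPM in KO. The highest KO library lay just under the lowest WT library, and the log2 fold change was -0.28 (SE 0.074, edgeR adjusted p = 0.0149). The call was lost when WT replicate 2 (adjusted p = 0.103), KO replicate 1 (0.0797) or KO replicate 3 (0.0519) was left out, and 10.7% of the gene's 50-base stretches occur in other genes, among them Gm49085 on the other strand. The damage sensors of nucleotide excision repair were not called. Xpc had a log2 fold change of -0.063 (95% interval -0.15 to 0.024) and Ddb2 one of -0.044 (-0.17 to 0.078). Ddb2 overlaps Acp2 on the other strand and has 17.8% of its 50-base stretches in other genes. Ercc5, the nuclease that cuts beside the lesion, had a log2 fold change of 0.056 (95% interval -0.037 to 0.15). Polk, a polymerase that copies damaged DNA, had one of 0.0067 (-0.15 to 0.17).

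The 5 members of metabolism and stress went in both directions. Sesn2, a sestrin that restrains the growth kinase mTOR when amino acids are short, was 18.7, 19.6 and 23.1 CPM in WT and 34.7, 36.5 and 33.4 CPM in KO. The KO libraries were well above the WT libraries, with a log2 fold change of 0.78 (SE 0.068, edgeR adjusted p = 2.74e-06). Its relative Sesn1 was 136, 140.2 and 141 CPM in WT and 134, 136 and 135 CPM in KO, a log2 fold change of -0.044 that was not called (95% interval -0.11 to 0.026). Ddit4, also called Redd1, another inhibitor of mTOR, went the other way from Sesn2. It was 202, 185 and 172 CPM in WT and 145, 146 and 142 CPM in KO. The KO libraries lay close together below all WT libraries, and the log2 fold change was -0.37 (SE 0.049, adjusted p = 0.000118). Dcxr, a carbonyl and sugar reductase, averaged 4.94 ± 0.972 CPM in WT against 6.68 ± 0.187 CPM in KO (SD, n = 3), a log2 fold change of 0.43 (adjusted p = 0.0154). The call was lost without WT replicate 2, which was the lowest WT library (log2 fold change 0.32, adjusted p = 0.101), and without KO replicate 2 (adjusted p = 0.0632). Gdf15, a secreted stress cytokine, was at most 0.218 CPM in any library, and its log2 fold change of 0.57 had a 95% interval of -0.49 to 1.63.

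The shift was present in each KO library. Relative to the mean of the WT libraries, the median member lay at -0.0035, -0.0048 and -0.0073 on the log2 scale in WT replicates 1, 2 and 3 and at 0.18, 0.23 and 0.23 in KO replicates 1, 2 and 3. Of the 35 tested members, 27, 29 and 29 were above the WT mean in the KO libraries, and 16, 15 and 16 were in the WT libraries. The WT values lie close to that mean by construction, since these libraries set it, and are no comparison for the KO values. The same counts were not made for all genes tested. The median SD between replicates was 0.058 on the log2 scale for the members and 0.098 for all genes tested. These sets were not matched for level of expression, so the values do not show that the members vary less than other genes of their level. The map of members by library shows no library that stood against its group across the functional groups.

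**Figure D3:**
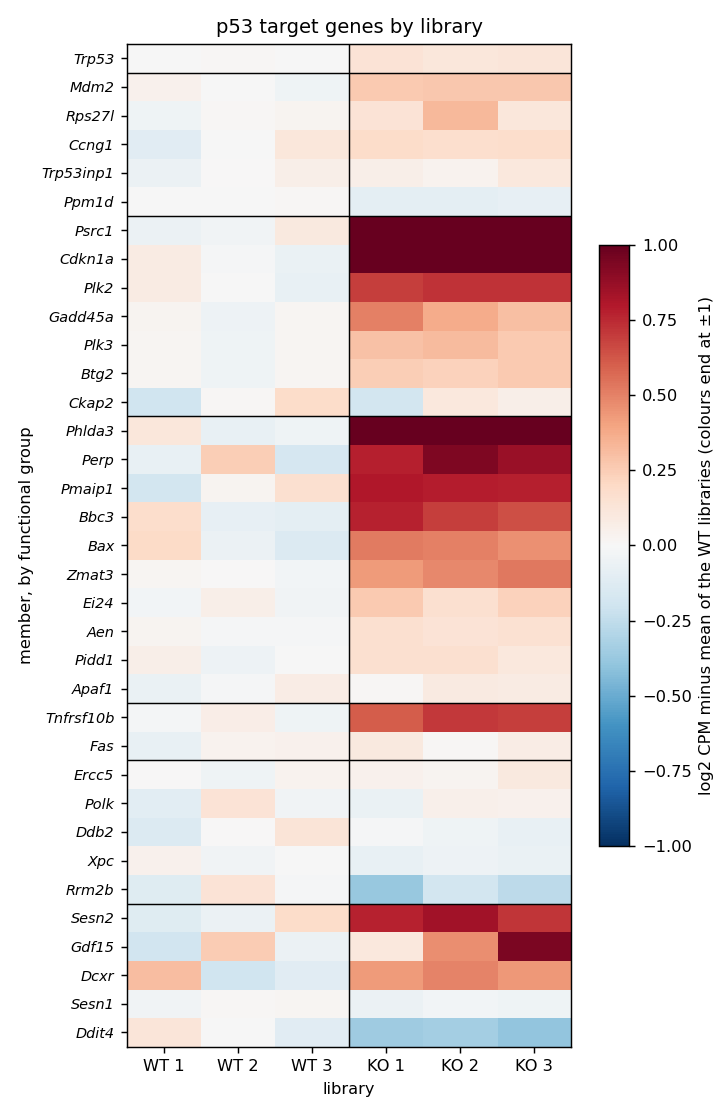
Log2 CPM of each tested member (rows, by functional group) in each library (columns) minus the mean of the WT libraries, with red above and blue below that mean and colours ending at 1 in either direction. Psrc1, Cdkn1a and Phlda3 are past the end of the scale in all KO libraries. Ddit4, Rrm2b, Ppm1d, Xpc, Sesn1 and Ddb2 are below the WT mean in all of them.

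The members differed widely in level, and the 3 largest changes were in weakly expressed genes. On a scale corrected for exon length, in counts per kilobase scaled to the same total in each library, the most abundant members in WT were Ddit4 at 367, Btg2 at 313 and Bax at 229. Cdkn1a was at 7.73, Phlda3 at 5.66 and Psrc1 at 3.55 on this scale in WT and at 24.7, 28.8 and 15.9 in KO. In the WT order of the 36 members, from the most abundant, these genes held places 27, 32 and 33. Among the mitochondrial death genes, Bbc3 went from 105.7 to 169.5 and Bax from 229 to 318 on the same scale, so that both remained far above the level of Cdkn1a in KO. Of the 13 members with a half-site, 9 were higher in KO and 0 were lower (edgeR, adjusted p under 0.05), with a median log2 fold change of 0.17. Of the 14 tested members whose windows held no half-site, 9 were higher and 1 was lower, with a median of 0.36. Of the 8 members without a window, 4 were higher and 1 was lower, with a median of 0.27. Among all genes tested, 12.0% were higher and 12.1% were lower.

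The other genes of the pathway were read from further lists. These were also chosen with earlier results of these data known, so their shares beside those of all genes describe the lists. Of 29 tested genes among 30 other direct p53 targets, 14 (48.3%) were higher in KO and 3 (10.3%) were lower, against 12.0% and 12.1% of all genes, and their median log2 fold change was 0.13. The largest increases were those of Sertad1, a regulator of the kinase Cdk4, Ninj1, which ruptures the membrane of dying cells, and Tob1, an antiproliferative gene related to Btg2. Their log2 fold changes were 0.46, 0.45 and 0.40. The decreases were those of the iron reductase Steap3 (-0.78, at under 1 CPM in all libraries), Rap2b (-0.19) and the translesion polymerase Polh (-0.18). With 1 library left out the increases numbered 11 to 15 and the decreases 1 to 3, with 1 decrease without WT replicate 2 or without any of the KO libraries in turn.

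The 15 tested regulators of p53, such as the kinases Atm, Atr, Chek1 and Chek2 and the Mdm2 partner Mdm4, gave 2 increases (13.3%, near the 12.0% of all genes) and 1 decrease (6.67%, against 12.1%), with a median log2 fold change of -0.0053. With 1 library left out the increases numbered 1 to 3, with 1 without WT replicate 2, KO replicate 1 or KO replicate 2 and 3 without WT replicate 3. The decreases numbered 2 without WT replicate 1. The acetyltransferase genes Kat5 and Crebbp were higher, by 0.16 and 0.15 on the log2 scale. Cdkn2a, whose transcripts encode the Mdm2 inhibitor Arf and the kinase inhibitor Ink4a and share 1 row of the table, was 0.973, 1.29 and 1.69 CPM in WT and 0.606, 0.656 and 0.654 CPM in KO. Its groups did not overlap, and the log2 fold change was -1.0 (SE 0.23, edgeR adjusted p = 0.00618). The gene was too low to be tested under a filter of at least 1 CPM in 3 libraries.

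Of 18 tested genes listed as repressed through p21 and DREAM, 9 (50%) were lower in KO, against 12.1% of all genes, and 0 were higher, the latter also at an unadjusted p under 0.05 and by DESeq2. RNA of red cell and myeloid markers was also lower in KO, and its part in these decreases was not tested. Their median log2 fold change was -0.30. Ccnb2, a mitotic cyclin, was 17.9, 20.1 and 20.9 CPM in WT and 13.1, 12.7 and 13.7 CPM in KO, a log2 fold change of -0.57 (SE 0.066, adjusted p = 3.14e-05). The cyclin genes Ccna2 and Ccnb1 fell by 0.45 and 0.44 on the log2 scale, with no overlap between groups. The other genes called lower were Aurkb, Birc5, Cdc25c, Cdk1, Plk1 and Rrm2. The 9 not called were Aurka, Bub1, Bub1b, Cdc20, E2f1, Mcm3, Mcm5, Mcm6 and Tyms. Their log2 fold changes lay from -0.28 (Bub1) to 0.088 (E2f1). With 1 library left out, 8 to 12 genes of the list were lower. Of 13 tested genes that sense or mend DNA breaks, 0 were higher, also at an unadjusted p under 0.05 and by DESeq2, and 3 were lower. These were Lig4, a ligase of end joining (-0.24), H2afx, the histone marked at breaks (-0.22), and Xrcc6, a Ku subunit (-0.18). The 3 decreases are 23.1% of the list, against 12.1% of all genes. Xrcc6 was near the threshold (edgeR adjusted p = 0.0476) with overlapping groups. Only 1 decrease was left without WT replicate 2, KO replicate 2 or KO replicate 3, and 2 were left without WT replicate 3 or KO replicate 1. The plot of the lists sets these fold changes beside those of the members.

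**Figure D4:**
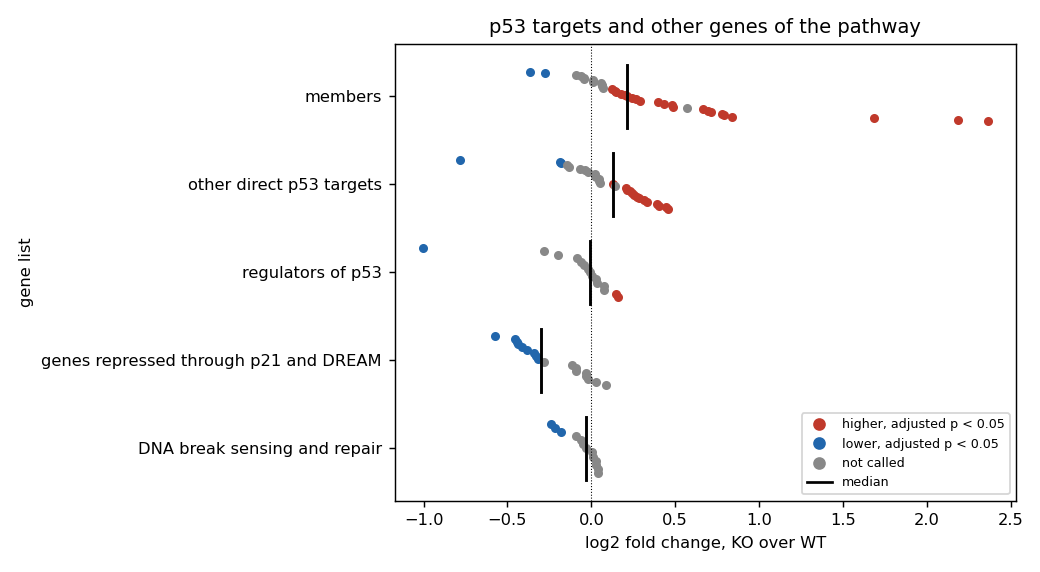
Log2 fold change of KO over WT (horizontal axis) for each tested gene of the members and of 4 further lists of the p53 pathway (rows), red where higher and blue where lower at an adjusted p under 0.05 (edgeR). Vertical bars are medians, at 0.21 for the members, 0.13 for other direct targets, -0.0053 for regulators, -0.30 for genes repressed through p21 and DREAM and -0.032 for the DNA break genes.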

How the data were processed

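Splenic Tregs were profiled by bulk RNA-Seq in 3 WT and 3 KO libraries. The deposited table holds raw counts by gene symbol, which the authors did not normalize. The submitters' processing notes name HISAT2, DESeq2 and the build mm10; the tool that made these counts, its strand setting and the annotation are not given in the sources used here. For the study's Foxp3 Cre libraries, the supplement names read filtering, HISAT2 and StringTie, which estimates expression from read coverage; whether this table was made so is not stated. Counts of 1 were rarer in it (620 entries) than counts of 4 (2579 entries). How many independent fragments lie behind the counts is unknown, so no counting interval is given.

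Counts were analysed in R 4.3.3 with edgeR 4.0.16 (newer quasi-likelihood method, robust dispersions, TMM scaling, filterByExpr), and 17307 genes were tested. A gene was called at an adjusted p under 0.05. Of 40 repeated symbols, the row with the most counts kept its name. SEs were derived from the F statistic. All 36 members were named in the text, with Zfp335 and, from each pathway list, up to 3 called genes with the largest increase and 3 with the largest decrease; marker genes, other list genes and overlapping genes were named beyond this rule after their values were seen. Members and lists were chosen with earlier results of these data known. Positions and exon lengths are from GENCODE for GRCm38, the build called mm10 by the submitters. The fit was tested on simulated data.

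Replicate numbers in the labels were tried as a block. Other alternatives were RLE, upper-quartile and total-count scaling, DESeq2 1.42.0, limma-voom (limma 3.58.1), edgeR's legacy method, other filters, omission of each library in turn, omission of mitochondrial, ribosomal, haemoglobin and immunoglobulin genes, counts divided by 4, and the study's cutoffs (1.5-fold, P under 0.05, adjusted P under 0.1). Leaving out genes of chromosomes X and Y and removing the trend on GC content were chosen after seeing the data.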

Additional observations from a re-analysis of the deposited data

How the results depend on the processing

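Of the 24 called members, 17 stayed past the threshold in the same direction under every alternative fit, and 7 (Trp53, Ccng1, Rps27l, Aen, Pidd1, Rrm2b and Dcxr) lost the call under at least 1. Of the 11 members not called, 2 passed under at least 1, Ppm1d as lower with total library size as the only scaling (adjusted p = 0.0447) and Trp53inp1 as higher with the GC trend removed (adjusted p = 0.0241). The number of members higher in KO was 22 and lay between 17 and 21 with 1 library left out, with 17 without WT replicate 2 and 17 without KO replicate 1. The number of members lower in KO was 2 and lay between 1 and 2, with 1 without WT replicate 2, KO replicate 1 or KO replicate 3. The median log2 fold change was 0.21 and lay between 0.22 and 0.25 with 1 library left out. With the study's cutoffs, 9 members were higher and 0 were lower. With total library size as the only scaling, the median was 0.18, 20 members were higher and 3 were lower, and 38.6% of all called genes were higher, against 49.9% with TMM; the median of all genes was then -0.035. The replicate block gave 21 members higher and 2 lower. Libraries with the same number did not deviate together (correlations of 0.028, 0.0082 and 0.033), and were treated as unpaired. With genes of chromosomes X and Y left out, 22 members were higher and 2 were lower. The only member on these chromosomes is Eda2r, which the main fit did not test, so the tested members stayed the same. This omission therefore cannot show what part the difference in Xist and Y-linked RNA has in the results. Depth limits Gdf15 and Eda2r, which were under 0.22 CPM in all libraries.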
